A study of Homo sapiens with 8 samples.

Results

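The axonal transport motors are the kinesin heavy chains and the dynein subunit that move cargo along the microtubules of a neurite, and 10 genes stood for them here: KIF5A, KIF5B, KIF5C, KIF3A, KIF3C, KIF1A, KIF1B, KIF21A, KIF21B and DYNC1I1. They were chosen by name from 18377 genes in all, with earlier results of these data known. Each was read from the array row annotated to that symbol alone. All 10 have such a row. KIF5A has 2 rows, and the one with the higher mean over the arrays was used.

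Expression was measured on 8 arrays of SHSY5Y, a human neuroblastoma cell line of neural crest origin. Stable lines of it had been made with viruses that carried either an shRNA or the vector without it, and both were kept under puromycin. There are 4 groups of 2 biological replicates: V71 cells in differentiation conditions (V71 DF), PLKO cells in the same conditions (PLKO DF), V71 cells in non-differentiation conditions (V71 NDF) and PLKO cells in non-differentiation conditions (PLKO NDF). All were grown on laminin. DF cells had 10 µM retinoic acid for 5 days and 2 nM BDNF without serum for 3 days, whereas NDF cells stayed in growth medium with serum. The lines are called by their title codes because the sources differ on them: the treatment label is shRNA for PLKO and control for V71, while the methods name a pLKO.1 vector as the control. The targeted gene was not analysed here and so did not check either reading. Each code is 1 stable line, so that effects of the shRNA cannot be told apart from other differences between the lines. Values are log2 RMA signals, which are relative to other arrays for the same gene and do not rank different genes. In such bulk RNA, fewer cells of a type and less RNA per cell cannot be told apart.

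The members differ in cargo and in direction. Kinesins of this kind walk towards the plus ends of microtubules, which in axons point away from the cell body, and carry vesicles, mitochondria and cytoskeletal proteins outwards. Cytoplasmic dynein 1 walks the other way and returns endosomes and growth factor signals to the cell body. Kinesin-1 (KIF5A, KIF5B, KIF5C) works with light chains, kinesin-2 (KIF3A, KIF3C) with the subunit KIFAP3, and kinesin-3 (KIF1A, KIF1B) carries precursors of synaptic vesicles. The kinesin-4 members KIF21A and KIF21B also act on the growth of the microtubule ends, and DYNC1I1 is the neuronal intermediate chain through which dynein holds dynactin.

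Promoter windows of 4 members on which the comparisons turn are given here, with matches to 3 motifs in capitals. KIF5C and KIF3C were among the members that rose upon differentiation, and KIF21A and DYNC1I1 were those called between the lines. Each window runs 5′ to 3′ on the gene's strand, over 250 bases before and 50 after the annotated transcript start, in GRCh38.p14 (RefSeq). KIF5C lies on the plus strand at chr2:148874977-148875276, KIF3C on the minus strand at chr2:25982448-25982747, KIF21A on the minus strand at chr12:39443071-39443370 and DYNC1I1 on the plus strand at chr7:95772304-95772603.
KIF5C: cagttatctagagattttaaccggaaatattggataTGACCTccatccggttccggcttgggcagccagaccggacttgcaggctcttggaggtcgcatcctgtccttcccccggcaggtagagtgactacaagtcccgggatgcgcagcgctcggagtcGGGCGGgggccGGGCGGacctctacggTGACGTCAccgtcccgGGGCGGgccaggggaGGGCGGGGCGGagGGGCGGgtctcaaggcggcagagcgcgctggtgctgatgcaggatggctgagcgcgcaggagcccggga
KIF3C: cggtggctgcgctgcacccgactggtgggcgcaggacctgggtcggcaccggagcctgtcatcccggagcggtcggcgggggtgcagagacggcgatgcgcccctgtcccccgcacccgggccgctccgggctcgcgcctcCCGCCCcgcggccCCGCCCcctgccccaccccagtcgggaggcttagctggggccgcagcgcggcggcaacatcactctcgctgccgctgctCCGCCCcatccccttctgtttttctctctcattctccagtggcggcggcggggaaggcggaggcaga
KIF21A: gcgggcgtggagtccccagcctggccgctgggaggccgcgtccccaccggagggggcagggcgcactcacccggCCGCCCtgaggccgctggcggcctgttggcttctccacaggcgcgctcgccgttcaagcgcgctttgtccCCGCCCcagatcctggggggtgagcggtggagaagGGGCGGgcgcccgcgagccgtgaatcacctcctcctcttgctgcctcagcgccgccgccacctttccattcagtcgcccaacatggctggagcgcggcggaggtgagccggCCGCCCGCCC
DYNC1I1: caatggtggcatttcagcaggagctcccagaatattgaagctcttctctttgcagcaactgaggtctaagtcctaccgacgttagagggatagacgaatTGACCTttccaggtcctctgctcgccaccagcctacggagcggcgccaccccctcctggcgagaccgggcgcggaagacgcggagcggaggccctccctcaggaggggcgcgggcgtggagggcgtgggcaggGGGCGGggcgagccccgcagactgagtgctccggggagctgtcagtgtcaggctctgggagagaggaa

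The motifs were searched on both strands. They were the cyclic AMP response element TGACGTCA, the retinoic acid receptor half-site AGGTCA, and the GC box GGGCGG, whose matches may overlap each other. The KIF5C window holds 1 cyclic AMP response element, at position -63 from the start, 1 half-site at -214 and 6 GC boxes. That of DYNC1I1 holds 1 half-site, at -151, and 1 GC box. KIF3C has 3 and KIF21A 5 GC boxes and neither has a match to the other motifs. Of 35116 windows of the same length, 1.85% hold the cyclic AMP response element, 13.8% the half-site and 45% the GC box. KIF1A has 3 windows. An alternative start, with its window on the minus strand at chr2:240820170-240820469, also has a cyclic AMP response element, at -197. The KIF1A window at the gene's 5′ end has no match to any of the 3 motifs. An alternative start of KIF5C, at chr2:148947625-148947924, has 1 half-site, at -115, and no match to the other motifs. These are matches of letters and say nothing of binding in these cells. Of the members, 8 have windows in the table, and KIF5A and KIF21B are named only.

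To see how the motors behave when the cells differentiate, DF was compared with NDF within each line. The call rule asked for an adjusted p under 0.05 (limma, Benjamini-Hochberg over the whole table) together with at least a 1.5-fold change. In V71 cells 4 of the 10 members rose (KIF5A, KIF5C, KIF1B and KIF3C) and 0 fell, where 7.53% of all genes were called, 3.98% higher and 3.55% lower. In PLKO cells 2 rose (KIF5A and KIF3C) and 2 fell (DYNC1I1 and KIF21B), where 7.04% were called, 2.88% higher and 4.16% lower. At that adjusted p and any fold, 7 members passed in each line, against 16.5% of all genes in V71 and 15.8% in PLKO. The median log2 change of the members was 0.51 in V71 and 0.39 in PLKO, beside -0.0036 and 0.0129 over all genes. The arrays of DF and NDF did not overlap for 9 members in V71 and for 8 in PLKO, a property of 55.0% and 55.1% of all genes.

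**Figure D1:**
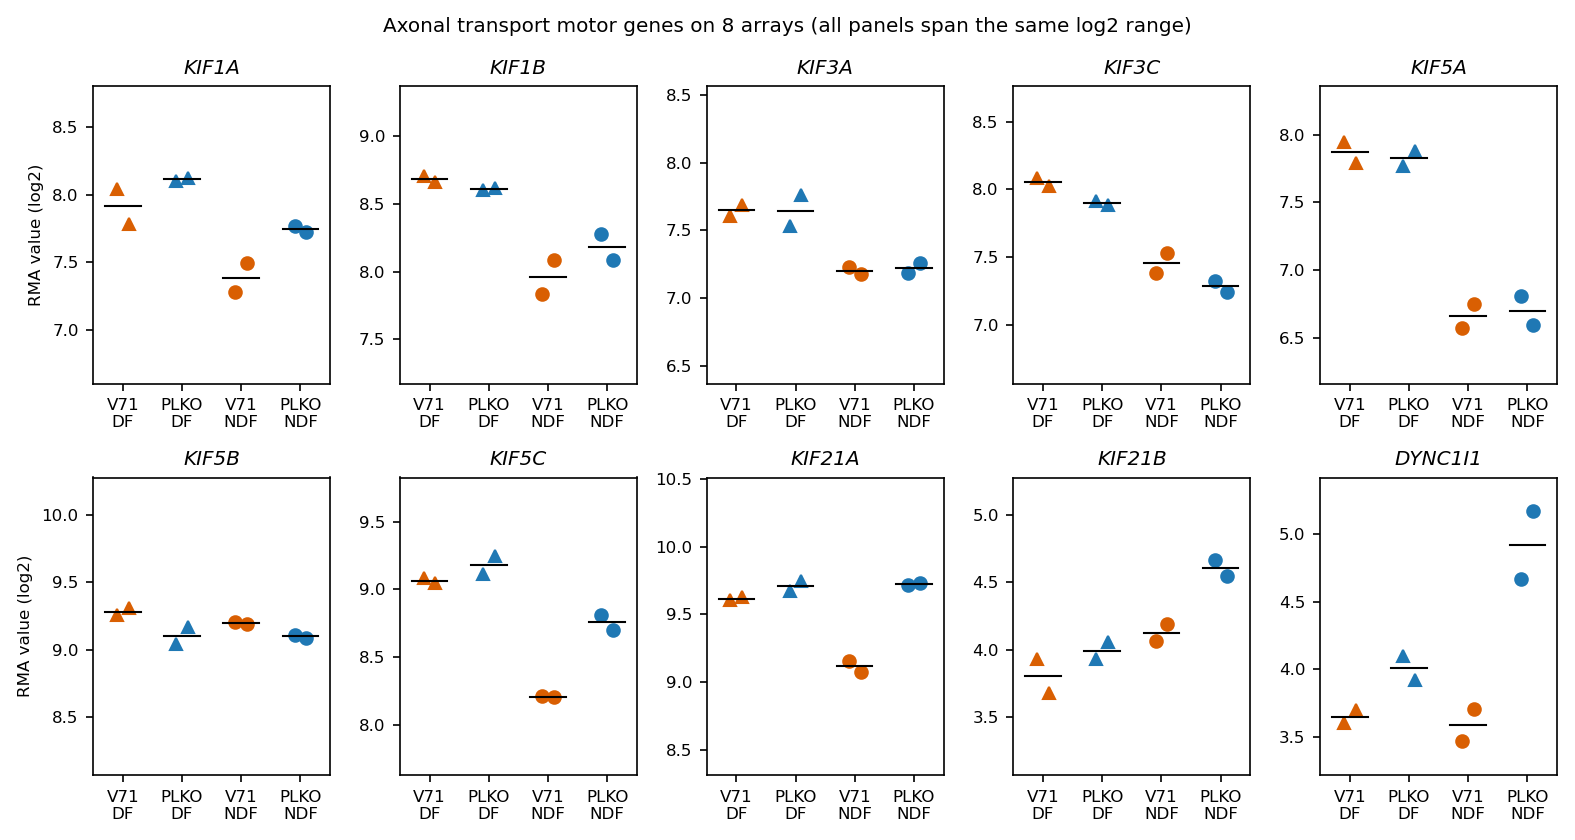
Log2 RMA values of the 10 motor genes on each array, by group, with V71 in orange and PLKO in blue, triangles for DF and circles for NDF, and a bar at each group's mean of 2 arrays. Every panel spans the same log2 range. KIF5A is higher on all 4 DF arrays than on all 4 NDF arrays, and DYNC1I1 stands highest in PLKO NDF.

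Kinesin-1 split by member. KIF5A, the neuronal heavy chain that is mutated in a hereditary spastic paraplegia, read 7.95 and 7.79 in V71 DF, against 6.57 and 6.75 in V71 NDF. It read 7.77 and 7.88 in PLKO DF, against 6.81 and 6.59 in PLKO NDF. All 4 DF arrays stand above all 4 NDF arrays, while the lines overlap in both conditions. The log2 change was 1.21 (standard error 0.11, adjusted p = 8.36e-05, 2.31-fold) in V71 cells and 1.13 (standard error 0.11, adjusted p = 0.000108, 2.18-fold) in PLKO cells. Among all genes it ranked 161 from the highest in V71 and 119 in PLKO. The other row of KIF5A gave 1.26 in V71 (adjusted p = 5.21e-05) and 1.06 in PLKO (adjusted p = 0.000135).

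KIF5C, another neuronal heavy chain, is the gene whose printed window holds the cyclic AMP response element. It read 9.08 and 9.05 in V71 DF, against 8.21 and 8.21 in V71 NDF, a log2 change of 0.86 (standard error 0.09, adjusted p = 0.000178, 1.81-fold). In PLKO cells it read 9.11 and 9.25 in DF, against 8.81 and 8.70 in NDF. That change of 0.42 had an adjusted p of 0.0111 but only a 1.34-fold size, under the threshold. The V71 NDF arrays are the lowest for KIF5C, and the 4 DF arrays stand above all NDF arrays.

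KIF5B, the heavy chain found in most cell types, read 9.26 and 9.31 in V71 DF, against 9.21 and 9.19 in V71 NDF. In PLKO it read 9.04 and 9.17 in DF, against 9.11 and 9.09 in NDF. Its log2 change was 0.09 in V71 (95% interval -0.10 to 0.27) and 0.0042 in PLKO (95% interval -0.18 to 0.19). Both intervals leave out a change of 1.5-fold in either direction.

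Both kinesin-2 subunits were higher on every DF array than on every NDF array. KIF3C, which dimerizes with KIF3A in neurons, read 8.09 and 8.02 in V71 DF, against 7.38 and 7.53 in V71 NDF, and 7.91 and 7.89 in PLKO DF, against 7.32 and 7.24 in PLKO NDF. Its log2 change was 0.60 in V71 (standard error 0.09, adjusted p = 0.00164, 1.51-fold) and 0.61 in PLKO (standard error 0.09, adjusted p = 0.00142, 1.53-fold). These folds lie just past the threshold. The size fell under it in V71 without V71 NDF replicate 2 (log2 change 0.52) or V71 DF replicate 1 (0.57), and in PLKO without PLKO NDF replicate 3 (0.57).

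KIF3A, the common subunit of the kinesin-2 dimers and also a motor of cilia, read 7.61 and 7.69 in V71 DF, against 7.23 and 7.17 in V71 NDF. It read 7.53 and 7.76 in PLKO DF, against 7.18 and 7.26 in PLKO NDF. The lines overlap in both conditions. Its log2 changes were 0.45 (adjusted p = 0.0147, 1.36-fold) in V71 and 0.42 (adjusted p = 0.0197, 1.34-fold) in PLKO, both under the fold threshold.

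Among the kinesin-3 members, KIF1B read 8.71 and 8.66 in V71 DF, against 7.84 and 8.08 in V71 NDF. In PLKO it read 8.60 and 8.62 in DF, against 8.27 and 8.09 in NDF. Its V71 change was 0.73 (standard error 0.11, adjusted p = 0.00151, 1.65-fold), and its PLKO change was 0.43 (adjusted p = 0.026, 1.35-fold). KIF1B gives rise to isoforms that carry mitochondria or vesicle precursors, and 1 row does not separate them. The difference between its changes did not pass the test of the difference (0.30, standard error 0.15, adjusted p = 0.621). KIF1B stands in a list that the study drew from these same arrays, which is not independent evidence of its direction.

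KIF1A, the main carrier of synaptic vesicle precursors, read 8.04 and 7.78 in V71 DF, against 7.28 and 7.49 in V71 NDF. It read 8.10 and 8.13 in PLKO DF, against 7.77 and 7.73 in PLKO NDF. Its log2 change was 0.53 in V71 (adjusted p = 0.0113, 1.44-fold) and 0.37 in PLKO (adjusted p = 0.0604, 1.29-fold). The V71 result depended on single arrays: without V71 DF replicate 2 the change was 0.66, and without V71 NDF replicate 3 it was 0.63, both called.

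Of the kinesin-4 members, 1 was lower in DF. KIF21B, a neuronal motor that pauses microtubule growth, read 3.93 and 3.68 in V71 DF, against 4.06 and 4.19 in V71 NDF, and 3.93 and 4.06 in PLKO DF, against 4.66 and 4.54 in PLKO NDF. In both lines the DF arrays lie below the NDF arrays. The change was -0.32 in V71 (standard error 0.11, adjusted p = 0.0947) and -0.61 in PLKO (standard error 0.11, adjusted p = 0.00492, 1.53-fold). The PLKO call was lost without PLKO DF replicate 1 (log2 change -0.55) or PLKO NDF replicate 2 (-0.55), and without moderation of the variance (adjusted p = 0.0752). KIF21B was dim within its arrays too, between the 36.9th and the 50.4th percentile of all rows.

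KIF21A, which is mutated in a congenital fibrosis of the extraocular muscles, read 9.60 and 9.63 in V71 DF, against 9.16 and 9.08 in V71 NDF. In PLKO the arrays overlapped, at 9.67 and 9.75 in DF, against 9.72 and 9.73 in NDF. The log2 change was 0.50 in V71 (standard error 0.08, adjusted p = 0.00292, 1.42-fold) and -0.0158 in PLKO (95% interval -0.20 to 0.17). The V71 NDF arrays stand apart below the other 6.

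DYNC1I1, the only dynein subunit among the members, fell in PLKO. It read 3.60 and 3.70 in V71 DF, against 3.47 and 3.70 in V71 NDF, and the groups overlapped (log2 change 0.06, 95% interval -0.29 to 0.41). In PLKO it read 4.10 and 3.92 in DF, against 4.66 and 5.17 in NDF, a change of -0.90 (standard error 0.16, adjusted p = 0.00438, 1.87-fold), which did not pass without moderation of the variance (adjusted p = 0.11). Its V71 values were low within their arrays, between the 32.8th and the 37.1th percentile of all rows, and in PLKO NDF they stood at the 50.4th and 57.1th. Background can make up part of so dim a signal, here as in KIF21B, and how much was not tested.

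To see whether the motors differ between the lines, V71 was compared with PLKO within each condition. In NDF 2 of the 10 members were called, KIF21A and DYNC1I1, both lower in V71, where 2.15% of all genes were called and 1.54% were called lower. The median log2 difference of the members, V71 minus PLKO, was -0.29, beside 0.0123 over all genes, and 8 members were negative. The arrays did not overlap for 8 members, a property of 47.5% of all genes. At any fold 3 members passed the adjusted p, against 3.41% of all genes. In DF 0 members were called by limma, where 3.06% of all genes were, and 1 had an unadjusted p under 0.05. At any fold 0 members passed in DF, against 6.51% of all genes, and the arrays of 7 did not overlap, against 45.7%. The DF median was -0.0456, beside 0.0054 over all genes.

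In NDF, DYNC1I1 read 3.47 and 3.70 in V71, against 4.66 and 5.17 in PLKO, a log2 difference of -1.33 (standard error 0.16, adjusted p = 0.00164, 2.52-fold). It ranked 55 from the lowest among all genes. In DF it read 3.60 and 3.70 in V71, against 4.10 and 3.92 in PLKO, which is a difference of -0.37 with an unadjusted p of 0.0438 and an adjusted p of 0.276 by limma. PLKO NDF was the group that stood apart, its arrays also the furthest from each other. The NDF call held with each array left out in turn but not without moderation of the variance (adjusted p = 0.149).

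In NDF, KIF21A read 9.16 and 9.08 in V71, against 9.72 and 9.73 in PLKO. The difference was -0.61 (standard error 0.08, adjusted p = 0.00354, 1.53-fold). In DF the difference was -0.09 (95% interval -0.28 to 0.09). Its size lies just past the threshold, and the call was lost without PLKO NDF replicate 3 (adjusted p = 0.0505) or V71 NDF replicate 3 (log2 difference -0.57). KIF21A stands in a list of genes that the study drew from these same arrays, and its direction has no independent support in that.

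KIF5C in NDF read 8.21 and 8.21 in V71, against 8.81 and 8.70 in PLKO. The difference of -0.55 had an adjusted p of 0.00967 and a 1.46-fold size, under the threshold. When the values were quantile-normalized again it was -0.59 and was called. Without moderation of the variance its adjusted p was 0.0887. KIF21B differed in NDF by -0.48 (adjusted p = 0.0535) and KIF1A by -0.36 (adjusted p = 0.169), in both cases with the V71 arrays below the PLKO arrays. KIF1B differed by -0.22 (adjusted p = 0.419).

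The other 4 members differed in NDF by between -0.0391 (KIF5A) and 0.17 (KIF3C). In DF the 10 differences ran between -0.37 (DYNC1I1) and 0.18 (KIF5B), with adjusted p values of at least 0.276. All 10 intervals in DF lie between -0.72 and 0.37.

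**Figure D2:**
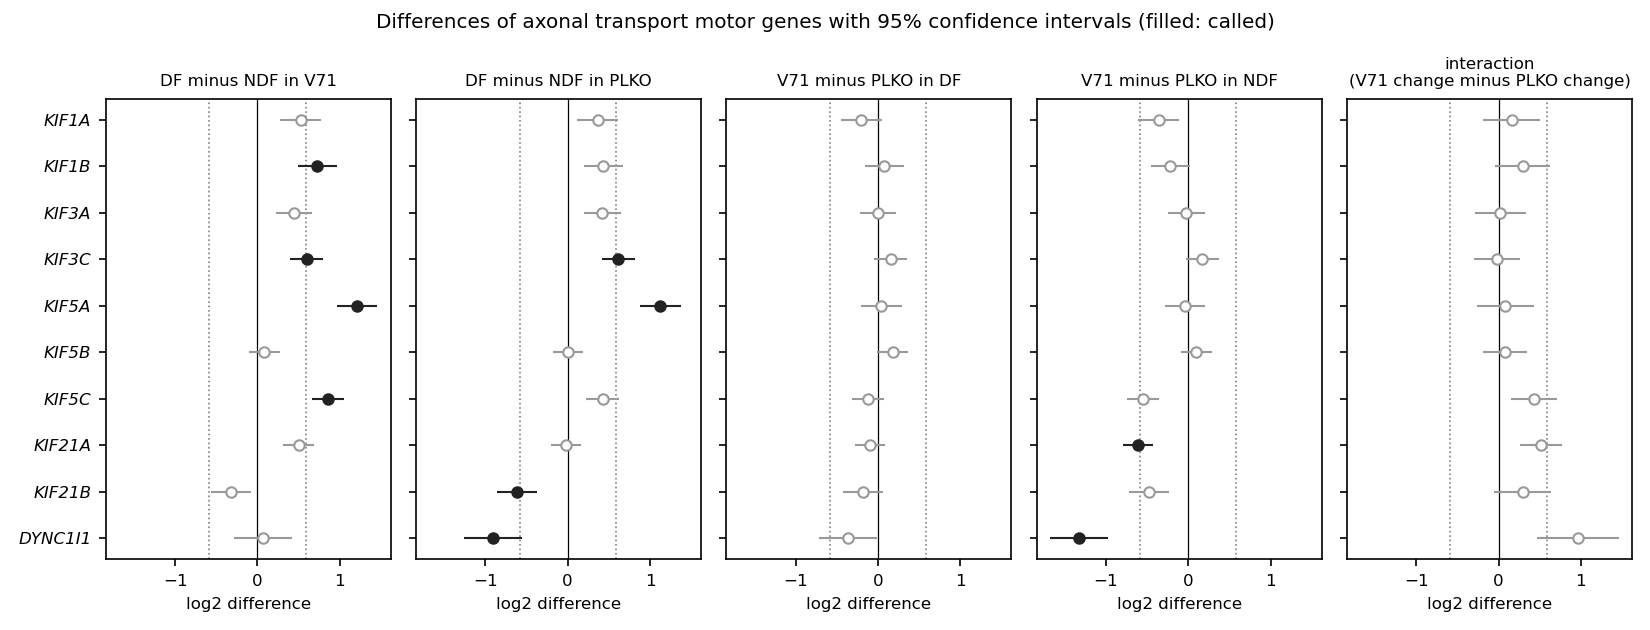
Log2 differences of the 10 motor genes in the 4 comparisons and in the interaction, with 95% confidence intervals from limma (bars). Filled points were called, and dotted lines mark a fold of 1.5. Most kinesins lie to the right upon differentiation, and the called points between the lines are KIF21A and DYNC1I1 in NDF.

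Whether the change upon differentiation differed between the lines was tested by the interaction, the change in V71 less the change in PLKO. Here 0 of the 10 members were called by limma, where 1.39% of all genes were (1.09% higher and 0.305% lower), and 3 had an unadjusted p under 0.05. These were DYNC1I1 (0.97, standard error 0.22, adjusted p = 0.107), KIF21A (0.52, standard error 0.12, adjusted p = 0.096) and KIF5C (0.43, standard error 0.12, adjusted p = 0.224). Without PLKO NDF replicate 2 the value of DYNC1I1 was 1.22, which was called. DYNC1I1 passed with the replicate numbers as a block (adjusted p = 0.0482), although no label says what a shared number marks. It did not pass with the numbers of the V71 NDF arrays exchanged, a choice made after seeing the data (adjusted p = 0.155), or without moderation (0.529). KIF5A had 0.08 (95% interval -0.27 to 0.43) and KIF3C -0.0175 (95% interval -0.30 to 0.26). The interaction was positive for 9 members. The comparisons share the same 8 arrays, so that a low V71 NDF value enters both the line difference and the change in V71.

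The partners of the motors were then counted from lists of other kinesins, adaptors and dynein genes. Of 18 other kinesins that act outside mitosis, 2 rose upon differentiation in V71 and 0 in PLKO, with medians of 0.05 and 0.11. Over all genes 3.98% rose in V71 and 2.88% in PLKO, so that a few calls in a small list say little about it. Between the lines 1.54% of all genes were lower in V71 in NDF and 1.26% in DF. The 2 were KIF16B, an endosomal kinesin-3 (log2 change 0.73, adjusted p = 0.00195), and KIF13A, which carries vesicles to the plasma membrane (0.65, adjusted p = 0.000772). KIF13A also moved up in PLKO, with averages of 6.61 in PLKO DF and 6.34 in PLKO NDF. KIF16B averaged 5.70 in V71 DF and 4.97 in V71 NDF, but 5.55 in PLKO DF and 5.66 in PLKO NDF. Between the lines it was lower in V71 in NDF (-0.68, adjusted p = 0.0106), a call lost when PLKO NDF replicate 2 (-0.67) or replicate 3 (-0.70), or replicate 2 of V71 NDF (-0.64), was left out. KIF26B was lower in V71 in DF (-0.93, adjusted p = 0.00123). Without moderation of the variance neither KIF26B (adjusted p = 0.0766) nor KIF16B passed (0.179 in NDF and 0.0567 in V71).

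Of 30 kinesin light chains and cargo adaptors 25 were analysed. Upon differentiation 2 rose and 1 fell in V71, and 3 rose and 0 fell in PLKO. Over all genes 3.98% rose and 3.55% fell in V71, and 2.88% rose and 4.16% fell in PLKO. In V71 MAPK8IP1, a JNK scaffold that binds kinesin-1, rose by 0.70 (adjusted p = 0.00417) and FEZ2, a kinesin-1 adaptor, by 0.60 (adjusted p = 0.0014). MAP7D2, which recruits kinesin-1 to microtubules, fell by 0.65 (adjusted p = 0.00826). In PLKO the risers were MADD, a link between KIF1 motors and vesicles (0.74, adjusted p = 0.000452), KIFAP3 (0.67, adjusted p = 0.000765) and CLSTN1, a calsyntenin that docks kinesin-1 (0.62, adjusted p = 0.00225). KIFAP3, the partner of KIF3A, had a V71 change of 0.27 (adjusted p = 0.075), and its interaction did not pass (-0.40, adjusted p = 0.282). The other genes called upon differentiation also moved in the same direction in the other line. MADD averaged 8.26 in V71 DF and 7.67 in V71 NDF, and CLSTN1 8.05 and 7.59. In PLKO DF and PLKO NDF, MAPK8IP1 averaged 6.20 and 5.77, FEZ2 6.999 and 6.818, and MAP7D2 5.19 and 5.58. In the interaction 0 of the 25 genes were called by limma, so that none of these calls was shown to be specific to 1 line. In DF, MAP7D2 (-0.83, adjusted p = 0.0053) and TRAK2, a mitochondrial adaptor (-0.70, adjusted p = 0.00346), were lower in V71 than in PLKO. Several of these sizes lie near the threshold. A single array left out took the change in V71 of MAPK8IP1 to 0.54 (V71 NDF replicate 2), of FEZ2 to 0.55 or 0.56 (V71 DF replicate 1 or V71 NDF replicate 3) and of MAP7D2 to -0.51 or -0.49 (the same arrays), that in PLKO of CLSTN1 to 0.53 (PLKO NDF replicate 3), and the DF difference of TRAK2 to -0.58 (PLKO DF replicate 2), none of them called. Without moderation the calls of MAP7D2 (adjusted p = 0.139 in DF and 0.113 in V71), TRAK2 (0.0854) and MAPK8IP1 (0.085) were lost.

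The other subunits of DYNC1I1's motor were counted in the same way. Of 10 other dynein 1 subunits 1 rose in each line, 0 fell in either, and 0 were called between the lines in NDF or DF by limma. Over all genes 3.98% rose in V71 and 2.88% in PLKO, so that 1 call in a list of this size says little about it. The heavy chain DYNC1H1 averaged 9.63 in V71 DF and 9.00 in V71 NDF (log2 change 0.63, adjusted p = 0.00322), and 9.49 in PLKO DF and 8.97 in PLKO NDF (0.52, adjusted p = 0.00985, under the fold threshold). The light intermediate chain DYNC1LI1 changed by 0.46 in V71 (adjusted p = 0.00874, under the fold threshold) and rose by 0.61 in PLKO (adjusted p = 0.00186). DYNC1I2, the intermediate chain of most cell types, differed between the lines in NDF by -0.0017 (adjusted p = 0.998) and changed by 0.34 in V71 and 0.28 in PLKO, neither called. Of 24 dynactin and dynein adaptor genes 22 were analysed. Of these 1 rose in V71, where 3.98% of all genes did, and 2 fell in PLKO, where 4.16% did. BICD1, a cargo adaptor, rose in V71 (0.60, adjusted p = 0.00285), and NDE1 (-0.84, adjusted p = 0.00127) and SPDL1 (-0.80, adjusted p = 0.000726), which both act at kinetochores, fell in PLKO. Each moved in the same direction in the other line. BICD1 averaged 8.16 in PLKO DF and 7.96 in PLKO NDF. In V71 DF and V71 NDF, NDE1 averaged 5.48 and 6.03, and SPDL1 7.33 and 7.82. In the interaction 0 of the 22 genes were called by limma, where 1.39% of all genes were. Calls were lost for DYNC1H1 without V71 DF replicate 1 (0.57) or V71 NDF replicate 2 (0.51), for DYNC1LI1 without PLKO DF replicate 2 (0.56) or PLKO NDF replicate 3 (0.56), and for BICD1 without V71 DF replicate 2 (0.49). Without moderation DYNC1H1 (adjusted p = 0.0597) and NDE1 (0.0557) were lost.

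Of 15 mitotic kinesins analysed, 13 fell upon differentiation in V71 and 14 in PLKO, where 3.55% and 4.16% of all genes fell. Their medians were -1.22 and -1.90, beside -0.0036 and 0.0129 over all genes. In DF 7 of the 15 were higher in V71 than in PLKO and 0 were lower, where 1.81% of all genes were called higher. Of these 7, the alternatives were run only for KIF14, KIF20A, CENPE and KIF18A, those of largest difference. Without moderation of the variance KIF14 (1.08, adjusted p = 0.0616), CENPE (0.92, adjusted p = 0.112) and KIF18A (0.87, adjusted p = 0.147) lost that call. All genes called in DF then numbered 166, against 563.

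**Figure D3:**
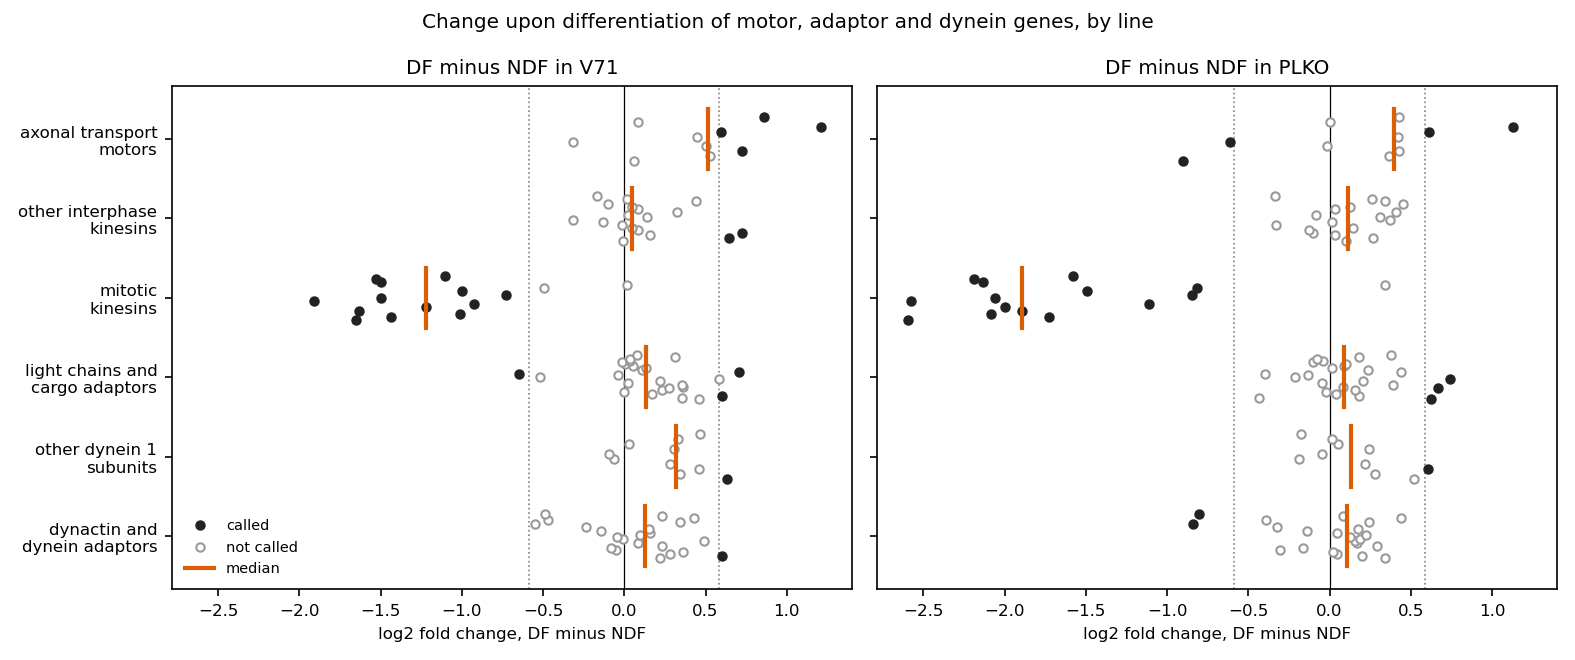
Log2 fold change, DF minus NDF, of each gene in 6 lists of motor and adaptor genes, in V71 (left) and PLKO (right), with called genes filled, an orange line at each list's median and dotted lines at a fold of 1.5. The medians of the axonal transport motors lie at 0.51 in V71 and 0.39 in PLKO, and those of the mitotic kinesins at -1.22 and -1.90.

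Some markers moved together with these results. Over all genes 3.55% fell upon differentiation in V71 and 4.16% in PLKO. Between the lines 1.54% were lower in V71 in NDF, and 1.26% were lower and 1.81% higher in DF. Of 8 cycling cell markers all 8 fell upon differentiation in both lines, and 5 were higher in V71 in DF. The sum of their log2 values was 54.2 to 54.5 in V71 DF, 48.3 to 49.7 in PLKO DF, 65.0 to 65.7 in V71 NDF and 63.6 to 63.9 in PLKO NDF. Of 15 markers of the substrate-adherent neuroblastoma cell, 6 were lower in V71 in NDF and 3 in DF, and 4 fell upon differentiation in PLKO. The sum of their log2 values was 67.2 to 69.3 in V71 DF, against 74.1 to 75.0 in PLKO DF. In V71 NDF it was 69.4 to 70.7, against 81.0 to 81.3 in PLKO NDF, the group where DYNC1I1 was highest too. The median log2 difference of the 15 in NDF, V71 minus PLKO, was only -0.15, within a range of -2.55 to 0.22. Within the arrays this list was mixed: VIM, a defining marker, lay between the 20.7th and the 56.3th percentile of rows, PDGFRA between the 70.2th and the 97.7th, and TWIST1 between the 94.8th and the 95.9th. In the interaction 3 of these markers and 1 of the cycling markers were called higher, where 1.09% of all genes were. Of 6 Schwann cell markers 0 were called in the 4 comparisons, and SOX10, a defining one, reached the 51.3th percentile at most. The noradrenergic markers PHOX2A, HAND2, GATA2, GATA3, ISL1, DBH and DDC lay between the 86.2th and the 98.8th percentile on every array and TH between the 44.2th and the 48.8th, beside the label of a neuroblastoma line. Of the 8 noradrenergic markers analysed, 3 fell upon differentiation in V71 (GATA3, DBH and DDC) and 1 in PLKO (DDC), with medians of -0.37 and -0.29, and 1 was lower in V71 in DF (DBH). The part of cycling, substrate-adherent and noradrenergic cells in the results on the motors was not tested.

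Arrays of the same group were closest to each other, with a Spearman correlation across rows of 0.9947 or more, and pairs from different groups reached 0.9932 at most. The median of an array lay between 4.60 and 4.68. Having only 2 arrays in a group bounds how precise any of these values can be.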

How the data were processed

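Total RNA of 8 SHSY5Y samples was hybridized to Affymetrix Human Gene 1.0 ST arrays. RMA was run by the authors in Partek Genomics Suite 6.5. Log2 values were deposited by the authors and used without further normalization. RMA compresses differences, most of all in dim rows. Of 28869 rows, 19310 are annotated to exactly 1 gene, 1752 to several and 7807 to none. A gene with more than 1 row (685 genes) was represented by the row of highest mean, which gave 18377 genes. All rows entered the model and the adjustment of p.

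Means of the 4 groups were fitted per row in limma 3.58.1 (R 4.3.3) with moderated variances (4 residual and 5.43 prior degrees of freedom). Samples were grouped by their title codes. Benjamini-Hochberg adjustment ran over the whole table. Calls needed an adjusted p under 0.05 and a 1.5-fold change or more, after the methods. The methods name an analysis of variance without its factors, so that the fit without moderation may not match it. On 28869 simulated rows for V71 minus PLKO in NDF, 39 of 50 rows changed by 1.8-fold were found, as were 45 of 50 at 2-fold, 50 of 50 at 3-fold and 50 of 50 at 4-fold, and 3 unchanged rows were called. The simulated noise was normal and independent between rows, and only the changed rows differed between groups, unlike these arrays. No fold under 1.8 was simulated, so that the power for smaller changes was not tested. The median residual SD was 0.0996.

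The members and lists were chosen with earlier results of these data known. Named genes are the 10 members, the called genes of each list and comparison (the 4 of largest change at most), and the 3 genes most like each of the 2 members of widest range. Outside this rule, values were given in V71 for KIFAP3, MADD, CLSTN1, DYNC1LI1, NDE1 and SPDL1. In PLKO they were given for MAPK8IP1, FEZ2, MAP7D2, DYNC1H1, BICD1 and KIF13A. DYNC1I2 and the cell type markers were also named outside it. Lists were counted, with no set test. Promoter windows are RefSeq's for GRCh38.p14 (Python 3.11.15, pandas 2.3.3). The alternatives are no moderation, median centring, a trended and robust prior, a second quantile normalization, dim rows left out, adjustment over rows with 1 gene, array weights, folds of 1.2 and 2, only the 4 arrays compared, a replicate block, the other row of KIF5A, and each array left out. The targeted gene was not analysed here.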

Additional observations from a re-analysis of the deposited data

Results flagged for a closer look

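A difference between the lines in the change upon differentiation was tested by the interaction (V71 change less PLKO change, limma, n = 2 arrays per group). No member passed it, where 1.39% of all genes did. Among the motor and adaptor lists 4 genes did, and among the marker lists VIM (1.44), SNAI2 (1.11) and DCN (0.90) of the substrate-adherent cell and BUB1 (0.75) of the cycling cell did. KIF16B had an interaction of 0.83 (standard error 0.16, adjusted p = 0.046), with a change of 0.73 in V71 and -0.10 in PLKO. The mitotic kinesin KIF14 had 1.07 (standard error 0.15, adjusted p = 0.0106), with -1.01 in V71 and -2.09 in PLKO. CENPE, the kinetochore motor, had 0.94 (standard error 0.18, adjusted p = 0.044), with -1.65 in V71 and -2.59 in PLKO. KIF20A, a motor of cytokinesis, had 0.67 (standard error 0.13, adjusted p = 0.0491), with -1.91 in V71 and -2.58 in PLKO. Of the kinesins, none of the 4 passed without moderation of the variance, and KIF16B, KIF20A and CENPE also lost the call with the replicate block. With quantile normalization again KIF16B (adjusted p = 0.0635) and CENPE (0.053) lost it, as did KIF16B with median centring (0.0651). With the pairing crossed in NDF, KIF16B (0.0735) and KIF20A (0.0758) lost it. With 1 array left out at a time, KIF16B, KIF20A and CENPE each lost it for 7 of the 8 arrays, over ranges of 0.67 to 0.99, 0.57 to 0.76 and 0.76 to 1.12, and KIF14 for 2, PLKO NDF replicate 2 (0.99) and V71 DF replicate 1 (1.05). With 2 arrays in a group, no array could be tested as an outlier.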

How the results depend on the processing

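KIF5A was called upon differentiation in both lines under every alternative run. With a fold of at least 2 it was the only member called in V71 and in PLKO (1 each), DYNC1I1 was the only one in NDF between the lines (1), and the genes called numbered 133 in NDF, 152 in DF, 486 in V71, 525 in PLKO and 133 in the interaction. With a fold of at least 1.2, 7 members were called in V71 and 7 in PLKO, and the genes called numbered 627 in NDF, 1197 in DF, 3034 in V71 and 2895 in PLKO. Without moderation 1 member was called in NDF and 2 in PLKO, since DYNC1I1 (adjusted p = 0.149 in NDF and 0.11 in PLKO) and KIF21B (0.0752 in PLKO) were lost, and the genes called numbered 99 in NDF, 166 in DF and 3 in the interaction. Quantile normalization again gave 3 members in NDF.

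With each array left out in turn, the members called numbered 1 to 2 in NDF, 0 in DF, 3 to 5 in V71, 3 to 4 in PLKO and 0 to 1 in the interaction. The genes called in the interaction numbered 120 to 230, against 256. Directions that turned belonged to uncalled values near 0. Under quantile normalization again these were KIF3A in DF between the lines (-0.01) and KIF21A in PLKO (0.0753). With arrays left out, the ranges that crossed 0 were, for KIF3A between the lines, -0.0594 to 0.0172 in NDF cells and -0.113 to 0.116 in DF cells, and for KIF5A -0.146 to 0.0676 in NDF cells and -0.0341 to 0.120 in DF cells. Upon differentiation they were -0.0554 to 0.180 (DYNC1I1) in V71 and -0.0541 to 0.0224 (KIF21A) and -0.0588 to 0.0673 (KIF5B) in PLKO. In the interaction they were -0.092 to 0.137 (KIF3A), -0.0931 to 0.0581 (KIF3C) and -0.0248 to 0.189 (KIF5A).

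The replicates are numbered 2 and 3 for NDF cells but 1 and 2 for DF cells. No label says that a number marks a shared culture. The deviations of same-numbered arrays correlated by -0.18 in NDF and 0.19 in DF, which cannot tell whether it does. With the replicate block the members called were 2 in NDF, 0 in DF and 1 in the interaction (DYNC1I1, adjusted p = 0.0482), and the genes called were 388, 564 and 190. With the pairing crossed in NDF, an alternative chosen after seeing the data, 2, 0 and 0 members were called. No block could be fitted for DF minus NDF, whose groups share 1 number.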

Other observations

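Over the 8 arrays, the genes whose centred values were closest to those of KIF5A were AHNAK, a large scaffold protein (root mean square difference 0.0869 log2 units), SYT5, a synaptotagmin of secretory vesicles (0.114), and SORL1, a sorting receptor of endosomes (0.118). AHNAK averaged 7.96 in V71 DF, 7.96 in PLKO DF, 6.94 in V71 NDF and 6.82 in PLKO NDF. The genes closest to DYNC1I1 were TEAD2, a transcription factor of the Hippo pathway (0.178), MEIOC, a gene of meiosis (0.180), and ARHGAP36 (0.182). TEAD2 averaged 3.71 in V71 DF, 4.11 in PLKO DF, 3.90 in V71 NDF and 5.25 in PLKO NDF, so that it too stood highest in PLKO NDF. These neighbours were picked for the likeness, which is a description over 8 arrays of 4 groups and has no test.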
